A study of Homo sapiens with 6 samples.

Results

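The 36 genes described here encode proteins of glucose breakdown and of the cellular response to low oxygen. They fall into 23 glycolysis genes, which are glucose and lactate transporters, glycolytic enzymes and their direct regulators, and 13 genes of the hypoxia-inducible factor (HIF) pathway, of which 5 encode HIF subunits or the proteins that degrade them and 8 are HIF targets. The rule that names them is a list of symbols and no threshold on measured values, although the list was drawn up with earlier results of these data known, and all 36 matched 1 row each among the 58884 Ensembl genes of the deposited table through the GENCODE annotation. RNA-seq compared DLD1 parental cells, a human colorectal cancer cell line with a helical domain mutation in PIK3CA, with DLD1 p85β KR-AA cells, in 3 libraries each. The p85β KR-AA cells carry the K477A and R478A changes, which replace 2 basic residues in the nuclear localization sequence of p85β, knocked into both copies of PIK3R2 by genome editing. Both kinds of cell were kept in McCoy's medium with serum, and no hypoxia treatment was described for either. The knock-in cells were isolated as clones, the labels do not say which clone a library came from, and the effects of a clone and of the genotype cannot be told apart here. The source labels of p85β KR-AA replicates 2 and 3 give another residue number for the second change than their titles do.

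In glycolysis, glucose enters through transporters of the SLC2A family, is phosphorylated by hexokinase, split by aldolase into triose phosphates and carried through GAPDH, phosphoglycerate kinase, phosphoglycerate mutase, enolase and pyruvate kinase to pyruvate, which lactate dehydrogenase reduces to lactate. Many of these enzymes exist as isozymes from separate genes. When oxygen is present, the EGLN prolyl hydroxylases mark HIF-α subunits for the VHL ubiquitin ligase, and when oxygen is short, the subunits accumulate as protein, pair with ARNT and bind DNA with the core letters ACGTG to raise the transcription of genes of glucose uptake, glycolysis, pH control, mitophagy and blood vessel growth. HIF activity is therefore set mainly at the protein level, which RNA-seq does not measure.

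The libraries held 20301932 to 20873475 counts in parental cells and 20301396 to 26712816 counts in p85β KR-AA cells. Values are given in CPM, the count scaled to the size of the library after TMM normalization, and 1 count was worth 0.0273 to 0.0728 CPM. A gene was called when its fold change was at least 3 and its adjusted p under 0.01 (edgeR quasi-likelihood test with Benjamini-Hochberg adjustment over 16059 genes tested), and all 36 members passed the filter on low counts. Under this rule 46.2% of the genes tested were called, 28.6% higher in p85β KR-AA cells and 17.6% lower, and the groups did not overlap in 83.5%, so that a change in a member is read against a table in which most genes differ. The median log2 fold change over all genes tested was 0.32, and scaling by library totals in place of TMM raised it by 0.92. Marker lists moved as well. The 10 colon epithelium markers summed to 57906 to 79963 CPM in parental cells and to 8983 to 10525 CPM in p85β KR-AA cells. Of these, 7 were called lower and 1, CDH1, was called higher, at 97.3 ± 33.7 CPM and 344 ± 20.2 CPM. The 10 mesenchyme markers summed to 7.65 to 10.3 CPM and to 6320 to 7233 CPM, with 6 called higher. COL1A2 and THY1 stayed at 1 CPM or below in every library. Of 8 neuron markers 3 (NEFL, NEFM and SYT1) were called higher, and TUBB3 was lower, at a log2 fold change of -1.41. DCX and ELAVL4 were at 0 in every library. The neuron list summed to 520 to 608 CPM in parental and 343 to 365 CPM in p85β KR-AA cells. None of 8 blood markers was called (2 were tested), at 50.7 to 66.0 CPM and 34.8 to 42.7 CPM. What part these differences have in the results below was not tested, and in bulk RNA a different mix of cells and a different amount of RNA per cell cannot be told apart.

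The promoters of 31 members were in the RefSeq table used (GRCh38.p14, 250 bases before to 50 after each start). The letters ACGTG, read on either strand, were in a window of 18 of these 31 members (58.1%) and of 24.9% of all 27305 symbols in the table. By single windows, some genes having several starts, the shares were 37.9% of 58 member windows and 21.4% of 35116 windows. Among members with an entry, the letters were found in 3 of 6 that were called higher, 4 of 6 called lower and 11 of 19 not called, and in 14 of 22 glycolysis and 4 of 9 HIF genes. The 250 bases upstream of the start are shown for 5 members that hold the letters and whose RNA levels differed in direction. Only windows with a match were taken, and members without one are not shown. The letters are in capitals on whichever strand they occur. On the other strand ACGTG reads as CACGT, and a stretch that shows CACGTG holds both, overlapping. A match is a description of the sequence and not a binding site.
LDHA, chr11:18394313-18394562, plus strand: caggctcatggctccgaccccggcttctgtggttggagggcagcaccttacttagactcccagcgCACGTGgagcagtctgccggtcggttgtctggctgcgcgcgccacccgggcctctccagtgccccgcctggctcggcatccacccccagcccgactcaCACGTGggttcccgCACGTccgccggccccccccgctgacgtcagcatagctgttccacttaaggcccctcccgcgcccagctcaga
ALDOC, chr17:28576896-28577145, minus strand: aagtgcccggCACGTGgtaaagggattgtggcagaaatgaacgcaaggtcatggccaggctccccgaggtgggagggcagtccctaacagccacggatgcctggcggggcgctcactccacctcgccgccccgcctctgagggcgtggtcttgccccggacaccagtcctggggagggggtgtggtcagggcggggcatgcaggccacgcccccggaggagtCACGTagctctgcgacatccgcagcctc
BNIP3, chr10:131981924-131982173, minus strand: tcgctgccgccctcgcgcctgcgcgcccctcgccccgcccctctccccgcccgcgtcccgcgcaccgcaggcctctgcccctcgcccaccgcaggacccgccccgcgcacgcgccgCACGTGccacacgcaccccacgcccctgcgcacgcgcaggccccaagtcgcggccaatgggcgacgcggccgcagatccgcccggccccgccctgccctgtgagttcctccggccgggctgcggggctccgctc
CA9, chr9:35673678-35673927, plus strand: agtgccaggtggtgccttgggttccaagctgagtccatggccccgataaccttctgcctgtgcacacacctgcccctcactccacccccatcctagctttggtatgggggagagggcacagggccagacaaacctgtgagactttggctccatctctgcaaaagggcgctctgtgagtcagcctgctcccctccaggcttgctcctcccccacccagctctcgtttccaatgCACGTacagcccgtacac
ANKRD37, chr4:185396591-185396840, plus strand: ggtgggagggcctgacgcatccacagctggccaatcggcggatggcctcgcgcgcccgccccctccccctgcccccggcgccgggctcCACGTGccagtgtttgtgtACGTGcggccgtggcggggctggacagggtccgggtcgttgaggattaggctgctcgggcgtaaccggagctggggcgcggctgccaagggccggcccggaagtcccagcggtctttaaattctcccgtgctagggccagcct
BNIP3 and CA9 were called higher, ALDOC was called lower, and LDHA and ANKRD37 were not called, with log2 fold changes of 0.77 and -0.78. The last letter of the stretch in capitals nearest to the start lies 69 bases before it in LDHA, 24 in ALDOC, 129 in BNIP3, 14 in CA9 and 139 in ANKRD37.

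Under TMM, glycolysis genes were mostly lower in p85β KR-AA cells and HIF pathway genes mostly higher. Of the 23 glycolysis members, 6 were called lower and 2 higher, against the 17.6% and 28.6% of all genes. Without the fold threshold, 13 had an adjusted p under 0.01 and were lower, 6 were higher and 4 had a larger p (edgeR quasi-likelihood test), where 32.7% and 41.6% of all genes were lower and higher, 74.3% together. Their median log2 fold change was -0.79, which is -1.11 relative to the median gene. Of the 13 HIF members, 5 were called higher and none lower, 9 were higher at an adjusted p under 0.01 without the fold threshold and 1, ANKRD37, was lower, and the median log2 fold change was 1.38, or 1.06 relative to the median gene. The 5 machinery genes had a median of 1.38 (2 called higher), which was 0.07 with offsets for gene length and -0.06 with offsets for length and GC content, at the level of all genes. The 8 targets had a median of 1.12 (3 called higher), and of 1.44 and 2.16 with those offsets. Groups did not overlap in 7 glycolysis genes that were higher and 13 that were lower, and in 12 HIF genes that were higher and 1 that was lower, against 47.0% and 36.5% of all genes. As shares of all counts, which use no scaling factor, the glycolysis members together took 6.31% ± 0.179 (SD, n = 3) in parental cells and 5.10% ± 0.280 in p85β KR-AA cells, and the HIF members 0.148% ± 0.0224 and 0.425% ± 0.00132. With library totals 43.9% of all genes were called higher and 6.06% lower. The glycolysis median then turned to 0.14 (6 called higher, 1 lower), while the HIF median was 2.31 (8 called higher, none lower). Relative to the median gene these were -1.10 and 1.06. With length offsets the medians relative to the median gene were -0.96 for glycolysis and 1.07 for HIF members. With offsets for length and GC content they were -0.31 and 1.75, so that the glycolysis difference was smaller.

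**Figure D1:**
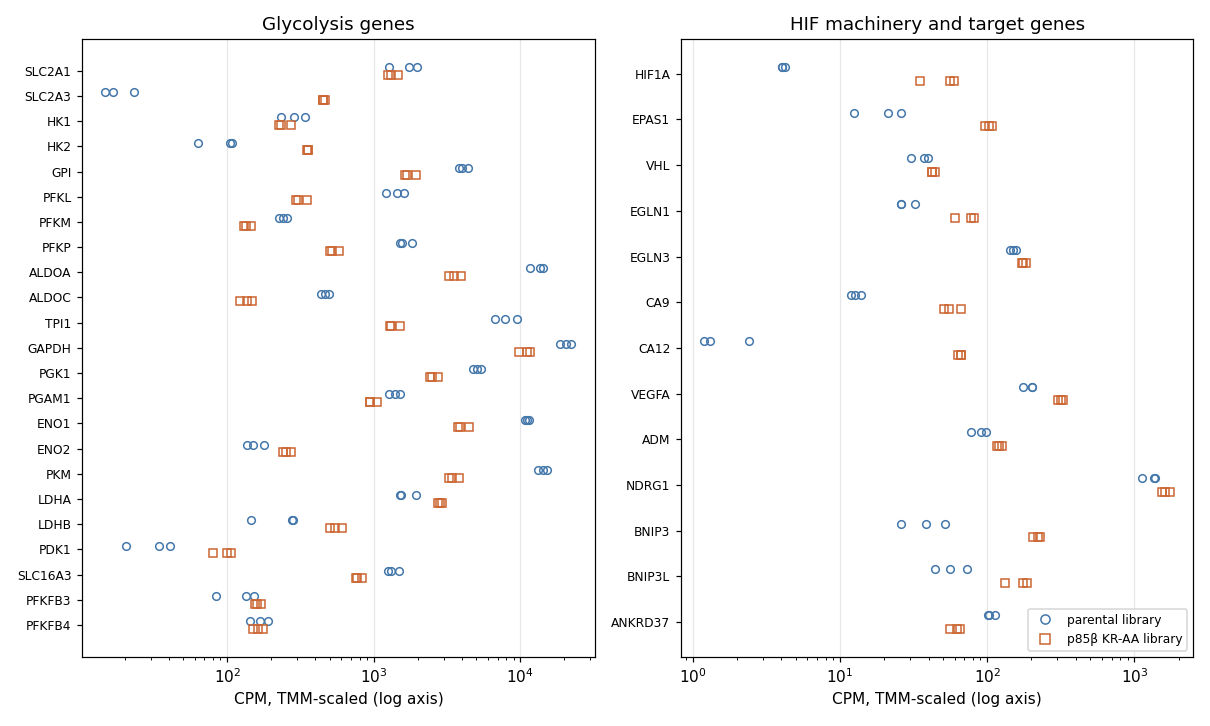
Level of each member in every library, in TMM-scaled CPM on a log axis, with glycolysis genes on the left and HIF pathway genes on the right. Circles are the 3 parental and squares the 3 p85β KR-AA libraries. TPI1, PKM and ALDOA lie lower in all p85β KR-AA libraries, and SLC2A3, CA12 and HIF1A lie higher in all of them. Under library totals, TPI1, PKM and ALDOA remain lower.

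Gene length and GC content moved with the fold change over the whole table. The median log2 fold change rose from -1.12 in the shortest of 10 equal bins of genes to 2.25 in the longest, and Spearman's rho of the log2 fold change was 0.45 with length (16059 genes) and -0.57 with GC content (15902 genes), described across genes, which share libraries. Members called higher had a median length of 3956 bases and a GC content of 50.5%, and those called lower 1784.5 bases and 54.9%. A second fit therefore took per-library offsets for both properties, and it is quoted as the offset value below. With offsets, 13.9% of 15902 genes were called higher and 10.7% lower, and the glycolysis members had a median of -0.36 with 1 called higher (SLC2A3) and 1 lower (PGK1). The HIF members had a median of 1.70 with 7 called higher and none lower. Across TMM, library totals, DESeq2, other filters, the replicate block and both kinds of offset, 15 of 23 glycolysis members kept their direction (9 lower, 6 higher) and 7 of 13 HIF members did (all higher). The 14 others changed sign in at least 1 of these settings. Whether length or GC content produced any difference was not tested.

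**Figure D2:**
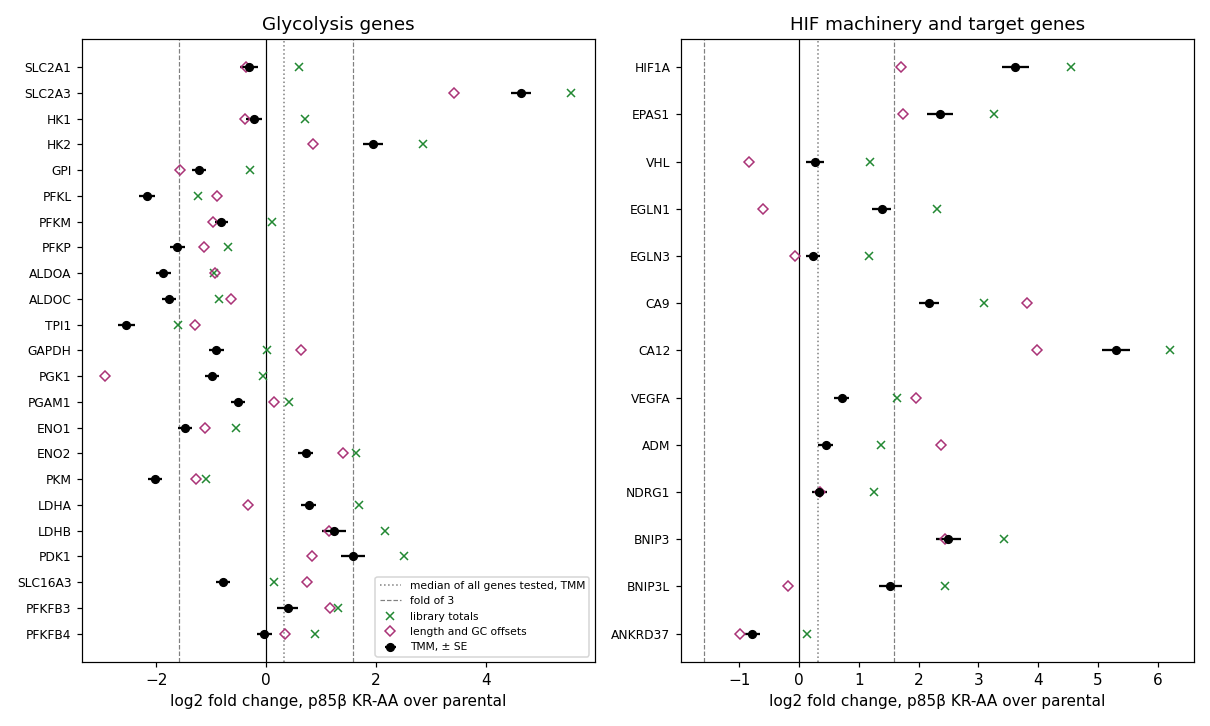
Log2 fold change of each member, p85β KR-AA over parental cells, under 3 scalings. Black points are the TMM fit with its standard error, crosses library totals, diamonds offsets for length and GC content, dashed lines a fold of 3 and the dotted line the median of all genes tested. Crosses lie to the right of the points by about the shift of 0.92. The diamonds of GAPDH, PGAM1, SLC16A3, LDHA, PFKFB4, VHL, EGLN1, EGLN3 and BNIP3L fall on the other side of 0 from the points.

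**Figure D3:**
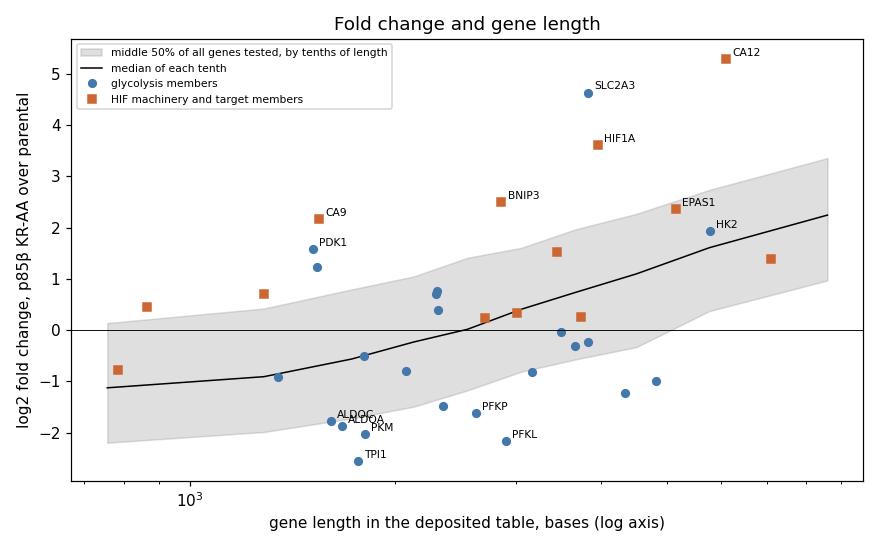
Log2 fold change (TMM) against gene length in the deposited table, in bases on a log axis, for glycolysis members (circles) and HIF members (squares). The line and band are the median and the middle 50% of all genes tested in 10 bins of length. The line rises from -1.12 to 2.25, genes such as SLC2A3, CA12, HIF1A, BNIP3 and CA9 lie above the band, and genes such as TPI1, PKM and PFKL lie below it.

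Glucose entry and phosphorylation shifted between isozymes. SLC2A3 (GLUT3), a high-affinity glucose transporter typical of neurons (ENSG00000059804, chr12:8071826-8171603 in GRCh37), was at 16.6, 14.8 and 23.1 CPM in parental replicates 1, 2 and 3 and at 449.8, 449 and 463 CPM in the p85β KR-AA replicates. It rose 24.9-fold, with a log2 fold change of 4.64 (SE 0.18, adjusted p = 1.1e-09, edgeR quasi-likelihood test) and an offset value of 3.42. SLC2A1 (GLUT1), the widespread basal transporter, was at 1980.3, 1279 and 1739 CPM in parental and 1312, 1250.0 and 1458 CPM in p85β KR-AA cells. These ranges overlapped, and the log2 fold change of -0.31 (SE 0.16, adjusted p = 0.085) was not called. Without parental replicate 2 it was -0.50 and its adjusted p was under 0.01, still short of the fold threshold. Per length, SLC2A3 made up 1.05% ± 0.234 (SD, n = 3) of the reads of the pair in parental cells and 24.6% ± 1.15 in p85β KR-AA cells. Under TMM the summed level of the pair was 459 ± 97.5 CPM per kilobase in parental and 484 ± 31.1 in p85β KR-AA cells, a difference within the spread between libraries. With library totals both genes were higher, at log2 fold changes of 0.60 and 5.55.

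HK2, the inducible hexokinase bound to mitochondria (ENSG00000159399, chr2:75061254-75120486 in GRCh37), was at 105, 63.5 and 107 CPM in parental cells and at 354, 351 and 355 CPM in p85β KR-AA cells. All p85β KR-AA libraries lay above all parental ones, and HK2 rose 3.85-fold (log2 fold change 1.94, SE 0.18, adjusted p = 5.6e-07). HK2 is a long transcript, and with offsets for length alone the value fell to 0.42 (adjusted p = 0.026) and with both offsets to 0.85. HK1, the constitutive hexokinase, was at 341, 232 and 285 CPM in parental and 234, 227 and 274 CPM in p85β KR-AA cells, which overlap (log2 fold change -0.22, SE 0.15, adjusted p = 0.196). Per length, HK2 was 17.4% ± 2.34 (SD, n = 3) of the pair in parental cells and 49.0% ± 2.39 in p85β KR-AA cells. SLC2A1 and HK1 lay below 0 with TMM and above it with library totals, at 0.60 and 0.70, whereas SLC2A3 and HK2 were higher in every setting tried.

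The upper enzymes of the pathway were lower. GPI, which interconverts glucose and fructose 6-phosphate, averaged 4092 ± 311 CPM in parental and 1751 ± 162 CPM in p85β KR-AA cells (log2 fold change -1.22, adjusted p = 1.8e-06), short of the fold threshold. PFKL, the liver-type subunit of phosphofructokinase-1, the enzyme of the committed step (ENSG00000141959, chr21:45719934-45747259 in GRCh37), was at 1612, 1453 and 1213 CPM in parental and at 306, 295 and 352 CPM in p85β KR-AA cells. It fell 4.49-fold (log2 fold change -2.17, SE 0.15, adjusted p = 3.1e-08, offset value -0.90). The platelet-type subunit PFKP (ENSG00000067057, chr10:3108525-3179910) was at 1832, 1549.7 and 1516 CPM in parental and at 522, 500.5 and 577 CPM in p85β KR-AA cells. Its fall of 3.06-fold (log2 fold change -1.61, SE 0.13, adjusted p = 1.6e-07) was close to the threshold, and it was short of a fold of 3 without parental replicate 1 (-1.53) or p85β KR-AA replicate 2 (-1.56) and with a filter of 10 counts in every library (-1.42). The muscle-type subunit PFKM was at 257, 239 and 226 CPM and at 134, 129.8 and 146 CPM, with no overlap and a log2 fold change of -0.82 (adjusted p = 3.8e-05), which turned to 0.11 with library totals.

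The 3 phosphofructokinase subunits summed under TMM to 1188 ± 135 CPM per kilobase in parental and 355 ± 28.0 in p85β KR-AA cells, 3.34-fold less. Their proportions differed without overlap between groups. PFKL took 41.2% ± 1.90 (SD, n = 3) of the sum in parental and 30.7% ± 0.493 in p85β KR-AA cells, PFKM 6.42% ± 0.320 and 12.1% ± 0.220, and PFKP 52.4% ± 1.76 and 57.1% ± 0.284. With both offsets the log2 fold changes were -0.90 for PFKL, -0.96 for PFKM and -1.14 for PFKP, so that PFKL was no longer the lowest of the 3. PFKFB3 and PFKFB4 make fructose 2,6-bisphosphate, the allosteric activator of phosphofructokinase-1. PFKFB3 was at 152, 84.3 and 135 CPM in parental and 160.2, 155 and 169.9 CPM in p85β KR-AA cells (log2 fold change 0.39, SE 0.18, adjusted p = 0.069). PFKFB4 was at 189, 142 and 168 CPM and at 161, 151 and 176 CPM (log2 fold change -0.03, SE 0.14, adjusted p = 0.82). Neither passed the threshold, and the PFKFB3 share of the pair was 52.3% ± 4.37 in parental and 60.1% ± 0.752 in p85β KR-AA cells.

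Aldolase and triose phosphate isomerase fell together with pyruvate kinase. ALDOA, the main aldolase (ENSG00000149925, chr16:30075485-30081778 in GRCh37), was at 13664, 14234 and 11589 CPM in parental and at 3534, 3285 and 3965 CPM in p85β KR-AA cells, a 3.66-fold fall (log2 fold change -1.87, SE 0.14, adjusted p = 7.6e-08, offset value -0.93). ALDOC, the brain-type isozyme whose promoter is shown above (ENSG00000109107, chr17:26900133-26903966), was at 496, 462 and 438 CPM and at 136, 123 and 148 CPM, a 3.42-fold fall (log2 fold change -1.78, SE 0.13, adjusted p = 5.6e-08, offset value -0.65). With the filter of 10 counts in every library it was -1.58, just short of a fold of 3. The pair fell in proportion. ALDOC was 3.56% ± 0.267 (SD, n = 3) of its sum in parental and 3.78% ± 0.0591 in p85β KR-AA cells, with overlapping libraries (exact permutation p = 0.3). TPI1, which interconverts the triose phosphates (ENSG00000111669, chr12:6976283-6980112), had the lowest log2 fold change of the members under TMM. It was at 7831, 9561 and 6697 CPM in parental and 1318, 1298 and 1505 CPM in p85β KR-AA cells, 5.85-fold lower (log2 fold change -2.55, SE 0.16, adjusted p = 1.7e-08, offset value -1.30). It was the member that stayed called lower with library totals, at -1.61.

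GAPDH, PGK1 and PGAM1, the next enzymes of the pathway, were lower under TMM and short of the fold threshold. GAPDH averaged 20496 ± 1823 CPM in parental and 10904 ± 950.1 CPM in p85β KR-AA cells and was, per length, the most abundant member in both. Its log2 fold change of -0.91 (adjusted p = 3.7e-05) was 0.02 with library totals and 0.63 with offsets. PGK1, the first ATP-generating enzyme, averaged 5069 ± 342 CPM and 2565 ± 172 CPM (log2 fold change -0.98, adjusted p = 9.8e-06). Its value was below 0 in every setting, down to -2.92 with offsets. With library totals it was -0.05, close to no change (adjusted p = 0.57, edgeR quasi-likelihood test). PGAM1 averaged 1396 ± 124 CPM and 979.7 ± 63.8 CPM (log2 fold change -0.51, adjusted p = 0.0021). Its adjusted p was above 0.01 without p85β KR-AA replicate 1 or 2, and its direction turned with library totals (0.41) and with offsets (0.14). Of these 3, PGK1 alone kept its direction.

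ENO1, the ubiquitous enolase, was at 11523, 11199 and 10763 CPM in parental and 3872, 3746 and 4436 CPM in p85β KR-AA cells, a log2 fold change of -1.47 (SE 0.13, adjusted p = 2.9e-07) that was just short of a fold of 3. ENO2, the neuron-type enolase, went the other way, at 179, 137 and 150.4 CPM against 252, 239.5 and 275 CPM (log2 fold change 0.71, SE 0.13, adjusted p = 0.0003). Both comparisons had no overlap between groups, and the ENO2 share of the pair was 1.40% ± 0.163 (SD, n = 3) in parental and 6.10% ± 0.141 in p85β KR-AA cells. PKM, the pyruvate kinase gene of most tissues (ENSG00000067225, chr15:72491370-72524160 in GRCh37), was at 15268, 14211 and 13140.0 CPM in parental and at 3407, 3255 and 3836 CPM in p85β KR-AA cells. It fell 4.06-fold (log2 fold change -2.02, SE 0.13, adjusted p = 2.9e-08, offset value -1.29), and the splice forms of PKM cannot be told apart in gene counts.

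The genes that handle pyruvate and lactate moved in both directions. LDHA, which favors lactate production, was at 1508, 1537 and 1948 CPM in parental and 2833, 2739 and 2942 CPM in p85β KR-AA cells (log2 fold change 0.77, SE 0.14, adjusted p = 0.00017), but with offsets it lay at -0.33. LDHB, the heart-type subunit, was at 146, 279 and 283 CPM and at 608, 548 and 505 CPM (log2 fold change 1.23, SE 0.21, adjusted p = 0.00015, offset value 1.14). Together they summed under TMM to 875 ± 142 CPM per kilobase in parental and 1591 ± 41.4 in p85β KR-AA cells, and the LDHB share, 17.3% ± 4.40 (SD, n = 3) and 22.6% ± 1.97, overlapped between groups. PDK1, a kinase that inhibits pyruvate dehydrogenase, averaged 31.8 ± 10.5 CPM and 94.8 ± 13.5 CPM. Its fold of 2.98 (log2 fold change 1.58, adjusted p = 2.2e-05) fell just under the threshold and was past it without parental replicate 2, parental replicate 3 or p85β KR-AA replicate 3 (1.60 to 1.77). The lowest log2 fold change of PDK1 with 1 library left out was 1.33. SLC16A3 (MCT4), the lactate exporter, averaged 1355 ± 122 CPM and 785 ± 45.1 CPM (log2 fold change -0.79, adjusted p = 6.9e-05), with 0.14 under library totals and 0.75 with offsets.

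**Figure D4:**
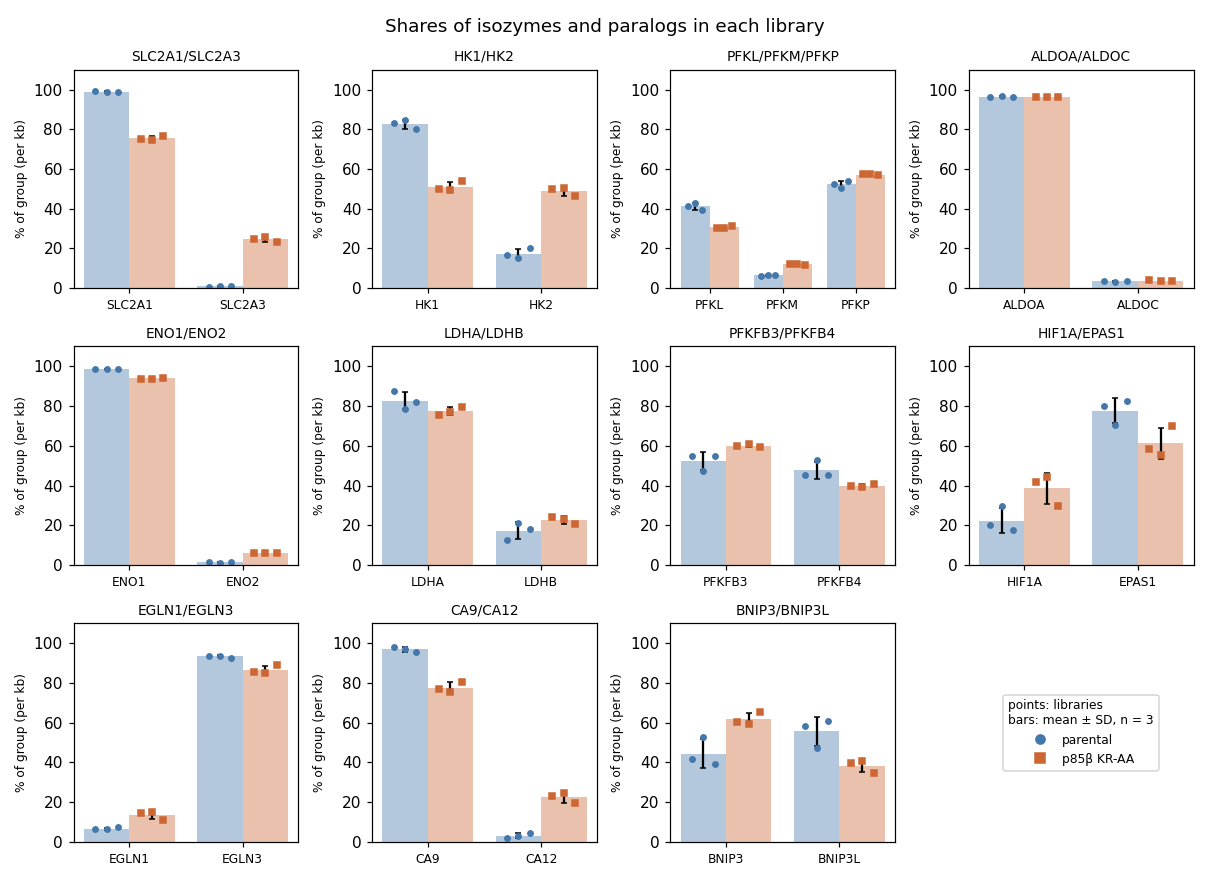
Share of each gene in its group of isozymes or paralogs, in percent of the summed counts per kilobase of the group in that library. Points are libraries and bars the mean ± SD of 3 parental (blue circles) and 3 p85β KR-AA (orange squares) libraries. SLC2A3, HK2 and CA12 went from 1.05%, 17.4% and 3.16% to 24.6%, 49.0% and 22.4%, whereas ALDOA and ALDOC kept nearly the same shares.

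A share within a group of isozymes does not depend on a factor that scales a whole library, but length and GC offsets act on each gene and do bear on it. Of 23 shares in 11 groups, 19 did not overlap between parental and p85β KR-AA libraries, beside 83.5% of the levels of all genes. In a group of 2 genes the shares mirror each other, so that these are not 23 separate observations. The overlapping ones were those of ALDOA and ALDOC and of LDHA and LDHB. The exact two-sided permutation test of 3 against 3 libraries cannot go below p = 0.1, which is the value of the 19, and after Benjamini-Hochberg adjustment over the 23 shares the values were between 0.121 and 0.3, so that no single share passed a threshold of 0.05. In HIF1A and EPAS1, in EGLN1 and EGLN3, in CA9 and CA12 and in BNIP3 and BNIP3L the shares also did not overlap, and they are given with the genes below. With both offsets the log2 fold changes of a group drew together in HIF1A and EPAS1 (1.70 and 1.73) and in CA9 and CA12 (3.81 and 3.98), and changed order in EGLN1 and EGLN3 (-0.61 and -0.06).

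The HIF-α subunit genes rose. HIF1A, the oxygen-regulated subunit present in most cells (ENSG00000100644, chr14:62162231-62214977 in GRCh37), was at 4.05, 4.01 and 4.20 CPM in the parental libraries and at 56.0, 59.5 and 35.1 CPM in the p85β KR-AA libraries. It was among the least abundant members in parental cells and rose 12.3-fold (log2 fold change 3.62, SE 0.23, adjusted p = 1.8e-08, offset value 1.70). An antisense gene, HIF1A-AS3, overlaps it and went from a mean of 6.45 to 364.9 counts, beside 61.3 and 1576 counts of HIF1A. Whether the counting used strand is not given in the sources used here, so reads of the 2 genes may have been exchanged. Counts of overlapping genes, here and below, are not scaled. In p85β KR-AA libraries 1 count was worth 0.0273 to 0.0364 CPM, and in parental libraries 0.0617 to 0.0728 CPM. EPAS1, which encodes HIF-2α (ENSG00000116016, chr2:46520806-46613836), was at 21.1, 12.5 and 26 CPM and at 103, 96.6 and 108 CPM, a 5.14-fold rise (log2 fold change 2.36, SE 0.22, adjusted p = 4.9e-07, offset value 1.73). With offsets for length alone it was 1.04. Per length, HIF1A made up 22.3% ± 6.39 (SD, n = 3) of the pair in parental and 38.6% ± 7.79 in p85β KR-AA cells, where replicate 3 was the lowest at 29.8%.

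None of the 3 members that take part in HIF degradation was called. EGLN1 (PHD2), the main oxygen sensor, was at 25.8, 25.9 and 32.1 CPM in parental and 77.4, 81.3 and 60.4 CPM in p85β KR-AA cells (log2 fold change 1.38, SE 0.16, adjusted p = 4.2e-06), short of the fold threshold. It is the longest member, and its value was -0.49 with length offsets and -0.61 with both. EGLN3 (PHD3), itself a HIF target, was at 142, 149.7 and 157 CPM and at 174, 173 and 183 CPM (log2 fold change 0.24, SE 0.12, adjusted p = 0.073), with an offset value of -0.06. VHL, the substrate receptor of the ligase, averaged 35.7 ± 4.97 CPM and 42.9 ± 1.19 CPM (log2 fold change 0.27, adjusted p = 0.111), with -0.83 after offsets. Neither EGLN3 nor VHL passed the threshold, although their libraries did not overlap. The EGLN1 share of its pair was 6.64% ± 0.542 (SD, n = 3) in parental and 13.6% ± 2.14 in p85β KR-AA cells.

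Among the targets, both carbonic anhydrases rose. These membrane enzymes hydrate carbon dioxide outside the cell and take part in pH control. CA9, whose promoter is shown above (ENSG00000107159, chr9:35673925-35681156 in GRCh37), was at 13.8, 11.9 and 12.6 CPM in parental and 55.4, 51.2 and 66.8 CPM in p85β KR-AA cells, a 4.51-fold rise (log2 fold change 2.17, SE 0.16, adjusted p = 6.9e-08). The offset value was larger, at 3.81. The antisense neighbor ARHGEF39 went from a mean of 481 to 362 counts while CA9 went from 192 to 1778. CA12 (ENSG00000074410, chr15:63613577-63674045) had the highest log2 fold change of the members under TMM. It was at 1.2, 1.31 and 2.41 CPM in parental and 65.9, 66.0 and 63.5 CPM in p85β KR-AA cells, 39.2-fold higher (log2 fold change 5.29, SE 0.23, adjusted p = 2.9e-09, offset value 3.98). Per length, CA12 went from 3.16% ± 1.29 (SD, n = 3) of the pair to 22.4% ± 2.68.

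The mitophagy receptors BNIP3 and BNIP3L were both higher under TMM. BNIP3 (ENSG00000176171, chr10:133781188-133795471 in GRCh37) was at 25.9, 51.6 and 38.3 CPM in parental and 222, 227 and 205 CPM in p85β KR-AA cells, a 5.65-fold rise (log2 fold change 2.50, SE 0.21, adjusted p = 1.9e-07, offset value 2.45). BNIP3L was at 44, 55.6 and 72.5 CPM and at 176, 188 and 132 CPM (log2 fold change 1.53, SE 0.19, adjusted p = 8.4e-06), short of a fold of 3 with all libraries and past it without parental replicate 3 or p85β KR-AA replicate 3 (1.69 and 1.67). Its lowest log2 fold change with 1 library left out was 1.36, and its offset value was -0.19. Within the pair BNIP3 went from 44.4% ± 7.36 (SD, n = 3) to 61.6% ± 3.11. Processed pseudogenes of the members took few reads, the highest being 0.514% of the parent gene's, for EGLN1. Neighbors that overlap other members moved as well, given in unscaled mean counts. These went from 446 to 1518 for SPTSSA (EGLN3, same strand) and from 120.4 to 389 for UFSP2 (ANKRD37, other strand). For CSNK1D (SLC16A3, other strand) they went from 4938 to 5482. In the same counts EGLN3 went from 2249 to 5464, ANKRD37 from 1587 to 1910 and SLC16A3 from 20301 to 24207. The values of these members carry the same uncertainty as HIF1A.

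The other targets, VEGFA, ADM, NDRG1 and ANKRD37, were not called under TMM. VEGFA, the angiogenic growth factor, averaged 193 ± 15.2 CPM in parental and 316 ± 12.8 CPM in p85β KR-AA cells (log2 fold change 0.71, adjusted p = 0.00013). ADM, the vasodilator adrenomedullin, averaged 88.6 ± 10.2 CPM and 121 ± 4.81 CPM (log2 fold change 0.45, adjusted p = 0.0065), and its adjusted p was above 0.01 when 1 library was left out, for 5 of the 6 libraries. With offsets both were called higher, at 1.96 and 2.37, and they were higher in every setting. NDRG1, a stress response gene, averaged 1296 ± 143 CPM and 1639 ± 105 CPM (log2 fold change 0.34, adjusted p = 0.028), which did not pass. ANKRD37, whose promoter is shown above, was the HIF member with a lower value, at 106 ± 6.98 CPM and 61.3 ± 4.65 CPM (log2 fold change -0.78, adjusted p = 8.4e-05). It was at 0.14 with library totals and at 0.26 with length offsets, so that its direction depended on the scaling.

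Levels between genes were compared per kilobase. GAPDH was highest in both kinds of cell, at 15204 CPM per kilobase in parental and 8089 in p85β KR-AA cells, followed by ALDOA (7872 and 2149.8), PKM (7866 and 1938) and ENO1 (4759.8 and 1714). Those 4 kept their order, although ALDOA and PKM differed by less than their spread in parental cells. TPI1 ranked 5 in parental cells and LDHA ranked 9, and in p85β KR-AA cells LDHA ranked 5 and TPI1 ranked 6. NDRG1 moved from rank 14 to rank 7 and SLC2A3 from rank 32 to rank 17. The lowest members in parental cells were CA12 (0.269 CPM per kilobase), HIF1A (1.03) and EPAS1 (3.85), and in p85β KR-AA cells EGLN1 (10.3), CA12 (10.7) and VHL (11.5).

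The other genes of the same pathways, listed with earlier results of these data known, showed a mixed picture for glycolysis and a higher one for HIF targets. Of 40 further genes of glucose and pyruvate metabolism, 29 were tested, and 7 were called higher and 4 lower, beside 28.6% and 17.6% of all genes. Their median log2 fold change was 0.30, beside 0.32 for all genes. With length and GC offsets 3 were called higher and 4 lower, beside 13.9% and 10.7% of all genes. The median then turned to -0.66, or -0.61 relative to the median gene. Those 4 were MPC2 (-2.28), PGM1 (-2.04), TIGAR (-1.96) and PDP1 (-1.69), and only PGM1 was also called lower under TMM. TIGAR and PDP1 were above 0 under TMM, at 0.78 and 0.26. PDK4, a pyruvate dehydrogenase kinase, had 2 counts over the parental libraries together and a depth-scaled ratio of 226 (counting interval 62.5 to 1872). The lactate and pyruvate transporter SLC16A7 also had 2 parental counts (ratio 123, 33.8 to 1015), and PCK1, a gluconeogenic enzyme, had 4 (ratio 30.1, 11.6 to 111). In the other direction PCK2, its mitochondrial counterpart, had a log2 fold change of -2.27 (adjusted p = 1.6e-08), the kinase PDK2 of -1.95 and the glucose transporter SLC2A8 of -1.93, all called lower. With both offsets PCK2, PDK2 and SLC2A8 were at -0.96, -1.21 and -0.46, and none of them was called. Under TMM the PDK family moved in both directions, with PDK2 called lower, PDK3 and PDK4 called higher and PDK1 just under the threshold. PDK3, at 1.69, was short of a fold of 3 without parental replicate 2 (1.56). With offsets it turned to -1.42, while PDK1, PDK2 and PDK4 kept their direction.

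Of 14 further genes of the HIF machinery, 13 were tested, and 4 were called higher and 2 lower, beside 28.6% and 17.6% of all genes. Their median was 0.69. With length and GC offsets none was called higher and 2 were called lower, beside 13.9% and 10.7% of all genes, and the median turned to -0.31. Those 2 were EGLN2 (-1.99) and HIF1AN (-3.40). HIF1AN was at -0.91 under TMM and not called there, and ELOB was at -1.39 with both offsets and not called. EP300 and CREBBP, the coactivators that HIF recruits, had log2 fold changes of 3.07 and 2.1, and CUL2, the scaffold of the VHL ligase, had 2.35. EGLN2 (PHD1), the third prolyl hydroxylase, had a log2 fold change of -2.84 (259 ± 35.8 CPM in parental and 36.2 ± 1.45 CPM in p85β KR-AA cells) and ELOB, the ligase adaptor, of -2.92. ELOB overlaps SRRM2 on the other strand, which went from 2033 to 13740 counts while ELOB went from 10185 to 2804. EP300 overlaps EP300-AS1 on the other strand, which went from 134 to 46.5 counts while EP300 went from 80.7 to 1372. CUL2 overlaps CREM on the other strand, which went from 113 to 608 counts while CUL2 went from 36.3 to 387. HIF1AN overlaps NDUFB8 on the other strand, which went from 7091 to 3328 counts while HIF1AN went from 2270 to 2491. The values of ELOB, EP300, CUL2 and HIF1AN carry the same uncertainty over strand as HIF1A. CREBBP was at -0.26 with length offsets. With both offsets EP300, CREBBP and CUL2 were between 1.08 and 1.42.

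Of 36 further HIF targets, all tested, 19 were called higher and 1 lower, beside 28.6% and 17.6% of all genes. Their median log2 fold change was 1.81, or 1.49 relative to the median gene. PPP1R3C, a glycogen regulator, had 6 counts over the parental libraries and reached 225, 230.1 and 212 CPM in p85β KR-AA cells (ratio 1671, counting interval 767 to 4553). IGFBP3, which binds insulin-like growth factors, was at 17.8, 17.8 and 19.7 CPM in parental and 2446, 2407 and 2589.9 CPM in p85β KR-AA cells (log2 fold change 7.07, SE 0.16, adjusted p = 1.7e-11, offset value 7.11). PPFIA4 was at 2.13, 1.67 and 2.78 CPM and at 48.0, 47.2 and 50.9 CPM (log2 fold change 4.46, offset value 4.29). MIF, a cytokine, had a log2 fold change of -2.23, the 1 called lower, and turned to 0.48 with offsets. With offsets 10 of the 36 were called higher and none lower, beside 13.9% and 10.7% of all genes, with a median of 0.90. Together the 3 lists held 90 genes, of which 78 were tested. Under TMM 30 were called higher and 7 lower, again beside 28.6% and 17.6% of all genes.

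**Figure D5:**
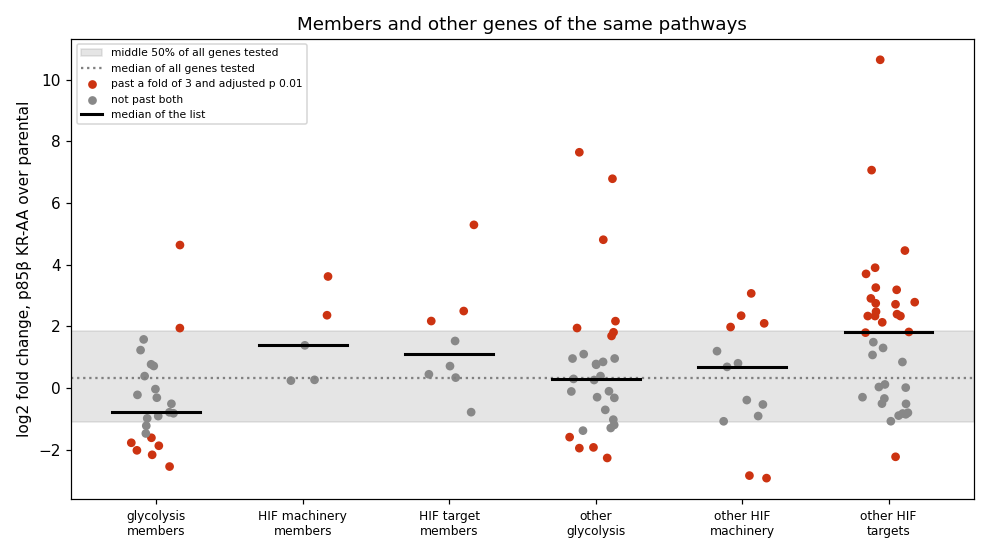
Log2 fold change (TMM) of the members and of the other genes of the same pathways, p85β KR-AA over parental cells, with 1 point per gene tested. Red points passed a fold of 3 and an adjusted p of 0.01, bars are list medians, and the band and dotted line are the middle 50% and the median of all genes tested. The medians are -0.79 for glycolysis members, 1.38 and 1.12 for HIF machinery and target members, and 0.30, 0.69 and 1.81 for the other genes. With library totals the glycolysis median is 0.14.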

How the data were processed

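RNA was extracted with Trizol and made into libraries with an Illumina TruSeq kit. According to the methods, reads were trimmed with SeqPrep and Sickle. The submitters' processing notes name HISAT2 2.1.0, RSEM 1.3.1, DESeq2 1.24.0 and the build hg18, without a role for each. The deposited values are estimated counts for each Ensembl gene, made by the authors without normalization, beside a gene length. Strand use in counting and the annotation are not given in the sources used here.

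Estimated counts were rounded and compared in R 4.3.3. With edgeR 4.0.16, filterByExpr removed low genes (minimum count 10, minimum total 15), TMM set the scale, and a quasi-likelihood test was adjusted by Benjamini-Hochberg. Standard errors are the log2 fold change over the root of F. No covariate was used. Every one of the 36 members is given. Values per library are given for members past the thresholds and members of isozyme groups, and from each list of other pathway genes up to 3 called genes with the largest change in each direction are named. PDK3, MPC2, PGM1, TIGAR, PDP1, HIF1AN and the neighboring genes were named after their values were seen. The members and lists were chosen with earlier results of these data known. Offsets were robust splines with 5 degrees of freedom per library (MASS). GC content was that of the longest GENCODE transcript of each gene, which need not be the transcript behind the deposited length. Symbols and positions came from GENCODE release 44 lifted to GRCh37 (56745 of 58884 genes matched), and promoters from RefSeq (GRCh38.p14), so that positions from the 2 builds are not interchangeable. Counting intervals are exact and cover counting error only. Pairs of replicates differed by 4.35 to 37.3 times the sampling variance (chi-square per degree of freedom). The p-values measure only the spread between these libraries, which may be technical. The code was tested on simulated counts. Without a length bias, edgeR recovered 193 of 195 changed genes with 0 false calls. With a simulated length bias, the fit without offsets recovered 166 of 195 and made 1140 false calls. The fit with length offsets then recovered 187 and made 0 false calls. In that simulation 195 of 15541 genes were changed, whereas 46.2% of the genes tested were called in the data. The fit with length and GC offsets was not simulated. The simulation therefore cannot tell how well the fits separate bias from change in these data. Alternatives were DESeq2 1.42.0, library totals, other filters and thresholds, the replicate block, each library left out in turn, glmTreat and the offsets. No protein or ChIP data were analysed here.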

Additional observations from a re-analysis of the deposited data

How the results depend on the processing

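Of the alternatives tried, scaling by library totals and the length and GC offsets changed most. For glycolysis members the count called higher (2) was 6 with library totals, 6 with an adjusted p under 0.01 and no fold, 4 at a fold of 2 and an adjusted p of 0.05, 1 with glmTreat against a fold of 3 and 1 with length and GC offsets, and 2 to 3 with 1 library left out. The count called lower (6) was 1 with totals, 13 with no fold, 3 with glmTreat, 1 with both offsets, and 5 to 6 with 1 library left out. Their median (-0.79) was 0.14 with totals, -0.59 with at least 10 counts in every library, -0.99 with length offsets and -0.36 with both offsets, and -0.88 to -0.72 with 1 library left out. For HIF members the count called higher (5) was 8 with totals and 9 with no fold, and 5 to 6 with 1 library left out, and the count called lower (0) was 1 with no fold. Their median (1.38) was 2.31 with totals, 1.04 with length offsets and 1.70 with both, and 1.31 to 1.51 with 1 library left out. For the other pathway genes, 13 were called higher with both offsets (main value 30, 29 to 30 with 1 library left out). The count called lower (7) was 2 with totals, 22 with no fold, 13 at a fold of 2 and an adjusted p of 0.05, 4 with glmTreat and 11 with length offsets, and 6 to 7 with 1 library left out. Without division by gene length, the shift in share was 35.0 points for HK2 (31.6 with it), -13.5 for EGLN3 (-6.98) and 41.9 for CA12 (19.3). Library totals and offsets move the log2 scale of all genes by construction, and the cause of the other differences was not tested.

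Single genes changed sign as follows. With library totals SLC2A1 was 0.60, HK1 0.70, PFKM 0.11, GAPDH 0.019, PGAM1 0.41, SLC16A3 0.14, PFKFB4 0.88 and ANKRD37 0.14. With length offsets VHL was -0.46, EGLN1 -0.49, NDRG1 -0.0038, ANKRD37 0.26 and CREBBP -0.26. With length and GC offsets GAPDH was 0.63, PGAM1 0.14, LDHA -0.33, SLC16A3 0.75, PFKFB4 0.34, VHL -0.83, EGLN1 -0.61, EGLN3 -0.060, BNIP3L -0.19 and MIF 0.48. PFKFB4 was 0.16 with at least 10 counts in every library, 0.0059 with no filter, and between -0.17 and 0.055 with 1 library left out, above 0 without p85β KR-AA replicate 2 (0.025) or parental replicate 1.

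The deviations of same-numbered libraries from their group means correlated at -0.20, 0.18 and -0.06 across genes, beside a mean of 0.013 for different numbers. With 3 libraries in each group these values cannot decide whether the replicate numbers pair the libraries. With the replicate number as a block, 3 glycolysis members were called higher (PDK1 added, at 1.62) and 6 lower, and 5 HIF members higher and 0 lower, with medians of -0.79 and 1.38, and 30 and 7 other pathway genes. Under the block PGAM1 and ADM had an adjusted p of 0.011 and 0.016.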
